A study of Homo sapiens with 12 samples.

Results

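The endoplasmic reticulum (ER) chaperone and unfolded protein response genes of C4.2B cells were examined. The group is a fixed list of 34 genes named for their textbook roles, out of 58735 genes in the count table, and all 34 were among the 16646 genes that passed the filter on low counts. The list holds 9 ER Hsp70 and Hsp90 chaperones and cofactors, 2 lectin chaperones, 6 disulfide bond enzymes, 8 genes of ER-associated degradation (ERAD), 3 genes of the translocation channel, 5 stress sensors and transcription factors, and WFS1.

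C4.2B is a human castration-resistant prostate cancer line, and all libraries come from this 1 line. PolyA RNA was sequenced in 4 arms of 3 libraries each: DMSO alone, AKTi (0.25 μM ipatasertib, which blocks the kinase AKT), EZH2i (1 μM tazemetostat, which blocks the histone methyltransferase EZH2), and the combination of both drugs. Cells of the EZH2i and combination arms received tazemetostat for 6 days beforehand, and every arm was collected 24 hours after dosing in charcoal-stripped FBS. The 3 libraries of an arm came from plates seeded in triplicate, so p-values measure the spread between plates. The comparisons ask how each inhibitor alone, and the pair together, changed the RNA of these genes.

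Proteins that enter the secretory pathway are threaded into the ER through the Sec61 channel, folded by Hsp70 and Hsp90 family chaperones and by the lectins calnexin and calreticulin, and cross-linked by protein disulfide isomerases. Proteins that fail to fold are moved back to the cytosol and degraded by ERAD. An overload of unfolded protein is read by 3 membrane sensors, ATF6, IRE1 (gene ERN1) and PERK (gene EIF2AK3), which in the textbook pathway raise chaperone and ERAD genes through the cleaved ATF6 factor and spliced XBP1, and slow translation while raising ATF4. Secretory epithelium such as the luminal prostate is known for a large ER.

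Total counts ranged from 14133755 to 22276417 per library. All 9 luminal prostate markers examined were expressed, with KLK3 at 970 TPM (a library-scaled level per unit of gene length) in DMSO and 3210 TPM in the combination. Against DMSO, 8 of the 9 were called higher in the combination and HOXB13 was called lower (log2 fold change -0.53). Among all genes tested, 38% were called higher and 35.2% lower. Of 8 markers of other cell types, CD3E and KRT5 were at 0 counts in every library, and COL1A1 was the highest at 1.74 to 6.11 TPM by arm. In bulk RNA a change in every cell and a change in a share of the cells cannot be told apart. The strand setting of the authors' counting is not given in the sources used here. Reads of a gene and of an overlapping gene on the opposite strand may therefore have been mixed or lost. Over their whole span, introns included, 24 of the 34 genes overlap another annotated gene on either strand. For HERPUD1 and ATF6 these lie on the same strand only, and some overlapping genes held 0 counts. In 10 of the 24 an overlapping gene held over 5% of the member's count.

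The ER stress element (ERSE), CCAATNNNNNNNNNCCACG, and the shorter ERSE-II, ATTGGNCCACG, are the sequences through which ATF6 and XBP1 are known to act. They were searched on both strands of RefSeq promoter windows (GRCh38.p14, 250 bases before to 50 after each start), which 31 of the 34 genes matched, with 39 windows. ERSE was in 10 of the 39 windows (25.6%), 3 of them overlapping windows of CANX, against 27 of all 35116 windows (0.0769%), and ERSE-II in 3 of 39 against 19 windows (0.0541%). The 8 genes with ERSE were HSPA5, HSP90B1, CRELD2, CALR, CANX, PDIA6, XBP1 and ERO1B, and the 3 with ERSE-II were HYOU1, SDF2L1 and HERPUD1. The genes and the elements were both taken from textbook knowledge of this response, so the excess over all windows was not a test. Only exact matches were taken, so near matches are not marked, and a gene without a match may hold one. The matches describe letters in a window and do not show that a factor was bound. They are shown, with the element in capitals and read along the gene's strand, because the element is what these genes share in sequence. CGTGG stands first where the element lies on the opposite strand. HYOU1 and HSP90B1 each hold a pair of elements, of which the one farther upstream is shown.

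HSPA5 ERSE, minus strand, chr9:125241386-125241414: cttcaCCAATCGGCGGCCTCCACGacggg
HSP90B1 ERSE, plus strand, chr12:103930211-103930239: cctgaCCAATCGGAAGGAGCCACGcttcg
CRELD2 ERSE, plus strand, chr22:49918549-49918577: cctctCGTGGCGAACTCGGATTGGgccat
CALR ERSE, plus strand, chr19:12938379-12938407: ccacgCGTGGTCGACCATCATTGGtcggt
CANX ERSE, plus strand, chr5:179698773-179698801: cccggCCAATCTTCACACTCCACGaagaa
PDIA6 ERSE, minus strand, chr2:10812848-10812876: ccggaCCAATGAGCCGCAGCCACGgcttg
XBP1 ERSE, minus strand, chr22:28800598-28800626: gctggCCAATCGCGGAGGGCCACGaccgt
ERO1B ERSE, minus strand, chr1:236282178-236282206: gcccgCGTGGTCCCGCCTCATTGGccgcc
HYOU1 ERSE-II, minus strand, chr11:119057371-119057399: gccccgtgaCGTGGTCCAATcccaggccg
SDF2L1 ERSE-II, plus strand, chr22:21642105-21642133: cctcggaagCGTGGACCAATcaaaaccct
HERPUD1 ERSE-II, plus strand, chr16:56932016-56932044: cggacgccgATTGGGCCACGttgggagag

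The HSPA5 element, its only exact match, began 66 bases before the start. It lies in the following stretch of 211 bases, from -250 to -40 relative to the start and upstream of every HSPA5 exon in the GENCODE annotation, shown whole because HSPA5 is the textbook reporter of the response (minus strand, chr9:125241383-125241593).
HSPA5 upstream: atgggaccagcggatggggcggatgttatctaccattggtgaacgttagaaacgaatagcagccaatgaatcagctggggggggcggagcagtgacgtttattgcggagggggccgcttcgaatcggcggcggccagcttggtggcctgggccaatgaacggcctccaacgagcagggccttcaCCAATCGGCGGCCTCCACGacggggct
A further search, for the ATF6 and XBP1 core TGACGTG, found it in HYOU1, where it overlaps the element shown, and in SEC61A1, against 1.97% of all windows.

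In the combination, most folding, disulfide and translocation genes were lower than in DMSO, while the sensors ERN1, ATF6 and EIF2AK3 and 4 of 8 ERAD genes were higher. At an adjusted p-value under 0.05 in edgeR's quasi-likelihood test, 24 of the 34 genes were lower and 9 were higher, and DNAJC3 alone was not called. Across all genes tested, 35.2% were called lower and 38% higher in this comparison, 73.2% in all, so a call by itself was common. The median log2 fold change of the 34 was -0.36 against 0.06 over all genes tested. The 9 higher calls were DNAJB9, ERO1B, HERPUD1, SEL1L, EDEM1, EDEM3, ATF6, ERN1 and EIF2AK3.

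Scaling by library size alone moved the median of all genes from 0.06 to 0.26 in this comparison. The lower calls then numbered 19 and the higher calls 9, and the 5 calls lost were those of P4HB, SYVN1, DERL2, XBP1 and WFS1, whose falls are therefore relative to the TMM scaling.

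**Figure D1:**
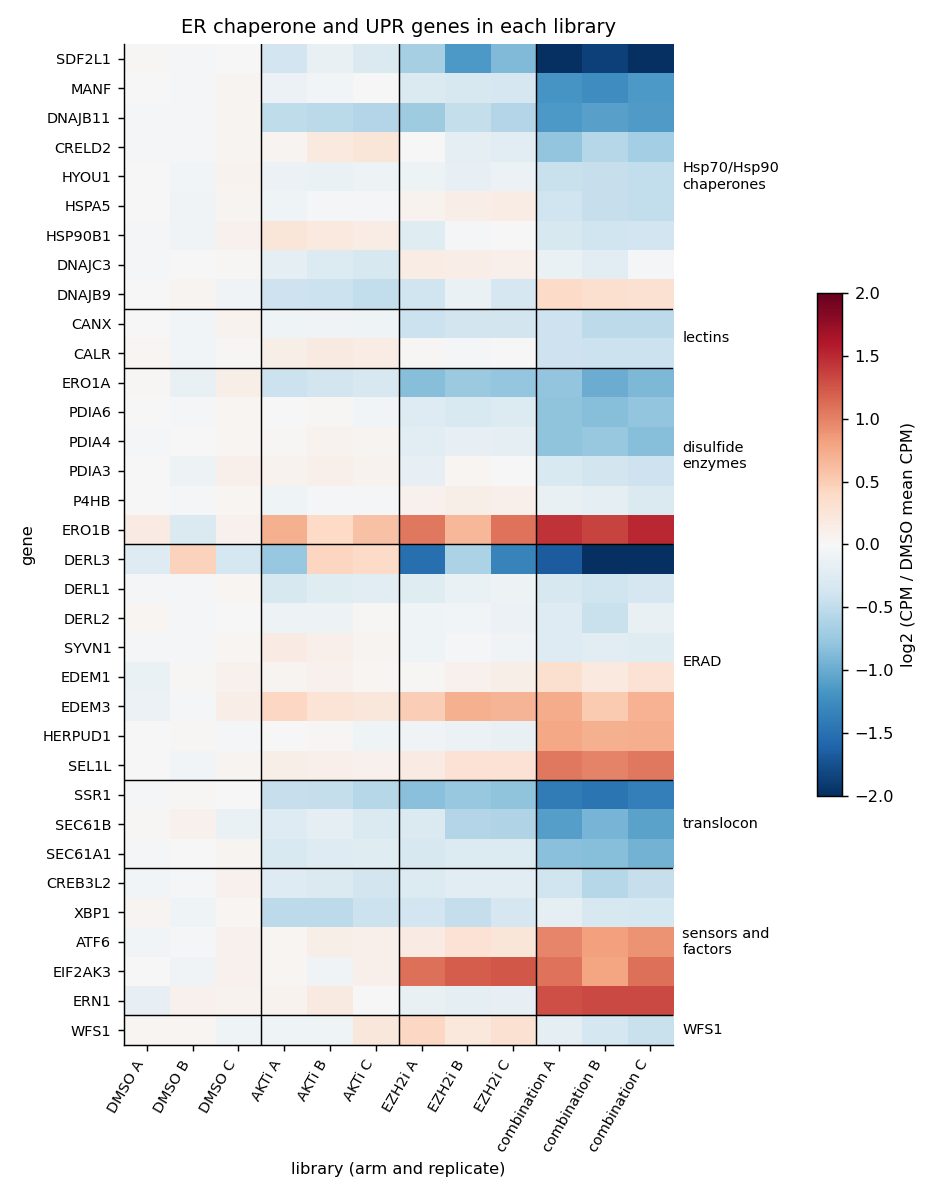
Each row is 1 of the 34 genes, grouped by role, and each column 1 of the 12 libraries. Color gives log2 of CPM (counts scaled to a common library size by TMM) over the mean of the 3 DMSO libraries, with the scale ending at -2 and 2. The 3 combination columns are blue for SDF2L1, MANF, DNAJB11 and the translocation channel and red for ERN1, ATF6, SEL1L and HERPUD1.

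**Figure D2:**
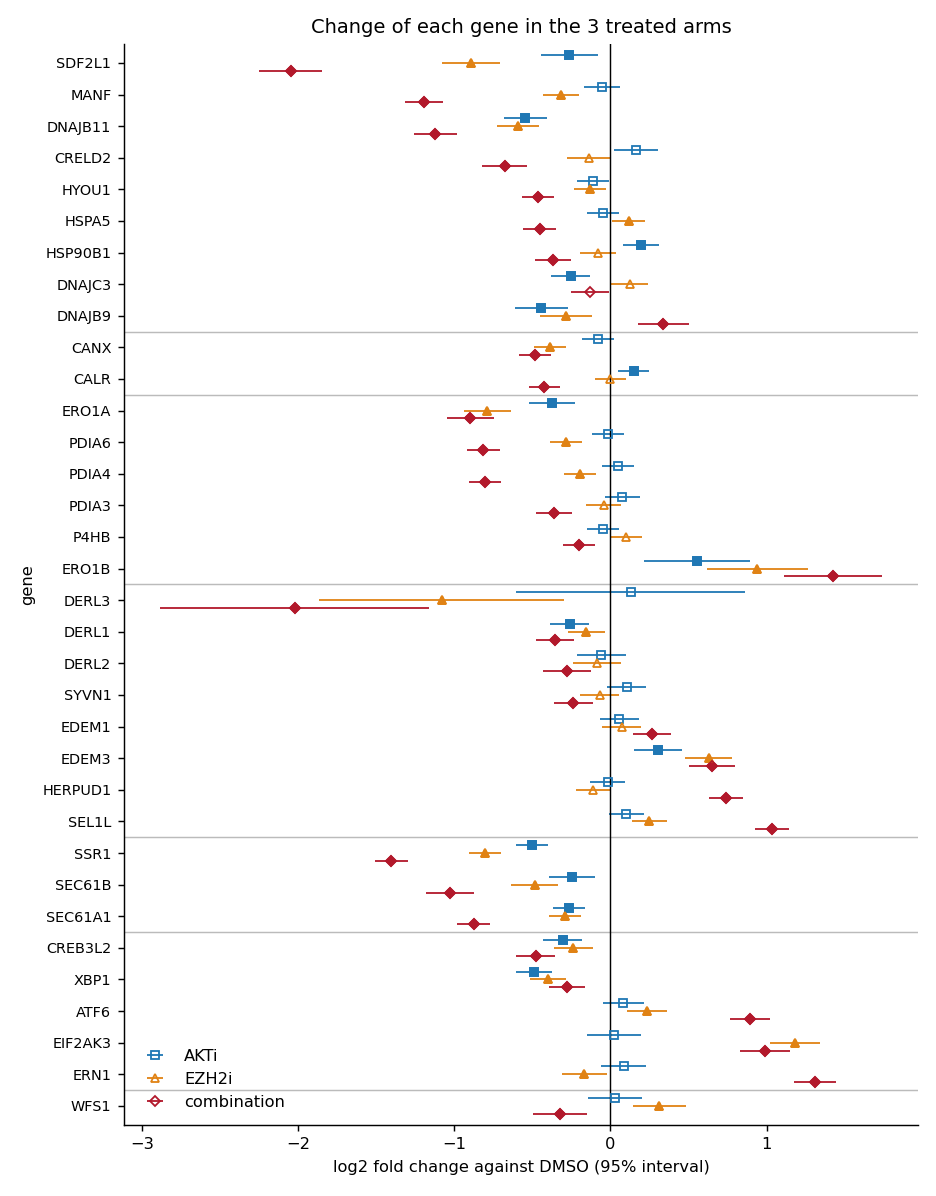
The horizontal axis is the log2 fold change against DMSO, with 95% intervals, for AKTi (squares), EZH2i (triangles) and the combination (diamonds), and filled symbols passed an adjusted p-value of 0.05. The combination lies left of both single agents for SDF2L1, MANF and PDIA4 and right of both for ERN1, SEL1L and HERPUD1.

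Per unit of length, the lectin CALR was the most abundant of the 34 transcripts in DMSO, at 1726 ± 94.9 TPM (SD, n = 3), followed by HSPA5 at 912 ± 68.6 and HSP90B1 at 764 ± 67.6 TPM, with no overlap between the libraries of these 3 genes. At the other end were ERN1 at 15.7 ± 1.65, ERO1B at 2.94 ± 0.523 and DERL3 at 1.79 ± 0.548 TPM. The summed level of the 34 was 8220 ± 478 TPM for DMSO, 8353 ± 31.5 for AKTi, 8303 ± 353 for EZH2i and 6952 ± 77.6 for the combination. The highest combination library, 7004 TPM, was below the lowest library of every other arm, 7779 TPM. Summed TPM of the ERAD genes was higher in the combination, at 508 ± 18.9 against 325 ± 15 in DMSO, and that of the sensors and factors was 444 ± 30.8 and 506 ± 21.6 TPM.

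**Figure D3:**
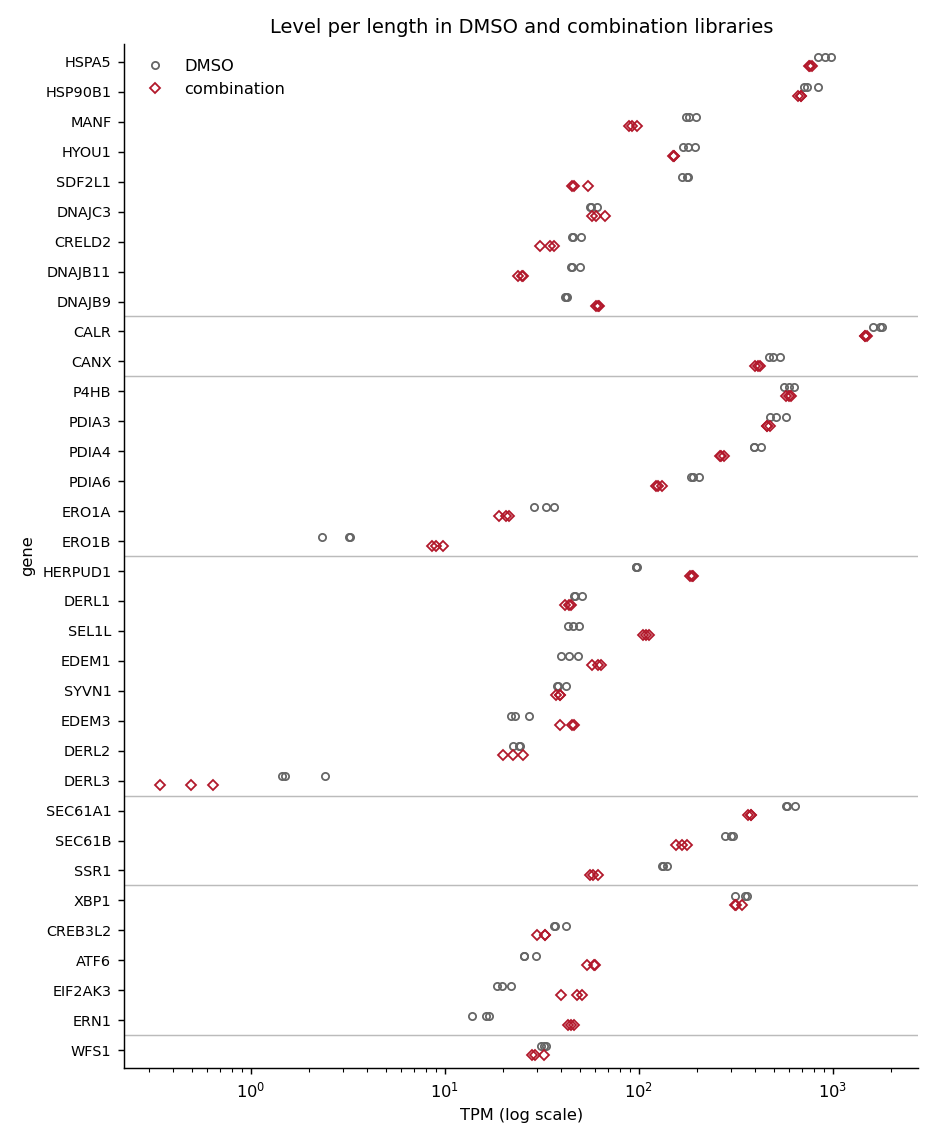
The horizontal axis, on a log scale, is the level in TPM of each gene in the 3 DMSO libraries (circles) and the 3 combination libraries (diamonds), by role. Levels span from DERL3, at 1.79 TPM in DMSO, to CALR, at 1726 TPM, and the combination points stand right of DMSO for the 3 stress sensors ATF6, EIF2AK3 and ERN1.

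Of the 9 ER Hsp70 and Hsp90 chaperones and cofactors, 7 were lower in the combination and DNAJB9 was higher. HSPA5 encodes BiP, the ER Hsp70 that binds unfolded chains and holds the sensors inactive. On the CPM scale, which compares libraries for 1 gene, its level was 1094, 1033 and 1135 CPM in DMSO, 1025, 1062 and 1068 CPM in AKTi, 1140, 1196 and 1202 CPM in EZH2i, and 824, 786 and 774 CPM in the combination. Every combination library was below every other library, while EZH2i stood above all DMSO libraries. The log2 fold change was -0.45 (SE 0.051, adjusted p = 6.4e-10), a level 0.731 times that in DMSO. EZH2i alone gave 0.12 (adjusted p = 0.044), a call lost in 11 of 19 alternatives, with 0.028 (adjusted p = 0.68) without DMSO replicate B.

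SDF2L1, a cofactor that keeps ER Hsp70 clients from aggregating, had the largest fall of the 34 genes together with the sparsely counted DERL3. It was at 59.9, 57.7 and 58.8 CPM in DMSO, 45.2, 53.3 and 48.3 CPM in AKTi, 37.1, 26.5 and 31.8 CPM in EZH2i, and 13.4, 16.1 and 13.2 CPM in the combination. The 4 arms did not overlap and were ordered DMSO, AKTi, EZH2i, combination. The combination was at 0.242 times DMSO (log2 -2.05, SE 0.099, adjusted p = 3.7e-20), EZH2i at log2 -0.89 (adjusted p = 8.9e-11) and AKTi at -0.26 (adjusted p = 0.016). The AKTi call was lost without AKTi replicate A (-0.21, adjusted p = 0.098) or DMSO replicate A (-0.25, adjusted p = 0.051).

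MANF, a small ER-resident factor that binds BiP and can be secreted, was at 133, 130 and 140 CPM in DMSO and 124, 129 and 136 CPM in AKTi. It was at 110, 108 and 107 CPM in EZH2i and 59.2, 56.6 and 60.8 CPM in the combination. DMSO and AKTi overlapped, EZH2i was below both, and the combination was the lowest arm. The combination fell by 1.19 on the log2 scale against DMSO (SE 0.059, adjusted p = 7.4e-20). DNAJB11, an ER J-domain protein that stimulates BiP, fell to a similar extent, at -1.12 (adjusted p = 4e-17), and it was lower with each single agent too (-0.55 and -0.59). Its overlapping gene TBCCD1, on the opposite strand, held 44.1% as many counts and was at -0.59 in the combination.

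DNAJB9, also called ERdj4, is a J-domain protein that acts with BiP and represses IRE1, and it is given in full because of its values. It was at 36.8, 38.0 and 34.9 CPM in DMSO, 27.5, 27.1 and 26.0 CPM in AKTi, 27.7, 33.5 and 28.9 CPM in EZH2i, and 47.8, 45.6 and 45.1 CPM in the combination. Each single agent lay below DMSO and the combination above it, without overlap. The log2 fold changes were -0.44 with AKTi (adjusted p = 4.6e-05), -0.28 with EZH2i (adjusted p = 0.0029) and 0.34 with the combination (SE 0.079, adjusted p = 0.00026). Under library-size scaling the EZH2i value was -0.14 (adjusted p = 0.14). PNPLA8 and THAP5 overlap DNAJB9 on the opposite strand with more counts than it. PNPLA8 was at -0.29 with AKTi, 0.39 with EZH2i and 0.37 in the combination. THAP5 was at -0.47, -0.65 and -0.42 in the same order. Their part in the DNAJB9 values was not tested, so those values are uncertain here and in the comparisons below.

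The remaining members of this role were HSP90B1 (GRP94, the ER Hsp90) at -0.37, HYOU1 (an Hsp70-like nucleotide exchange factor) at -0.47, CRELD2 at -0.68 and DNAJC3 at -0.13 in the combination. The first 3 were called lower. DNAJC3, an inhibitor of PERK, had an adjusted p of 0.053 and was called lower in 11 of 19 alternatives, among them DESeq2 (-0.15, adjusted p = 0.032), while library-size scaling gave 0.069. With AKTi alone HSP90B1 was 0.20 higher on the log2 scale (adjusted p = 0.0051), and without DMSO replicate B the value was 0.14 (adjusted p = 0.086).

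**Figure D4:**
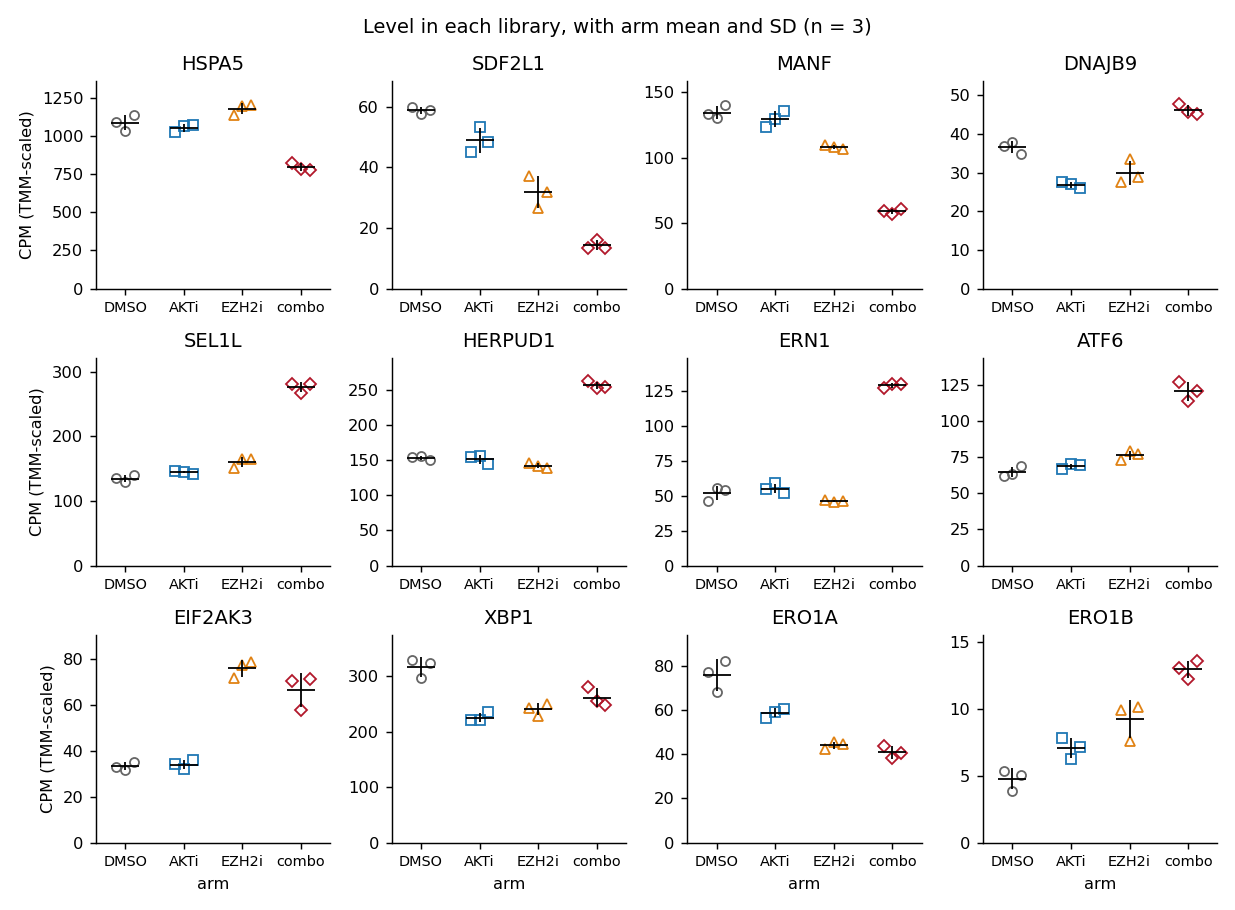
Each panel gives the TMM-scaled CPM of 1 gene in the 3 libraries of each arm, with the arm mean and SD in black, and the vertical axis starts at 0. HSPA5, SDF2L1 and MANF are lowest in the combination, DNAJB9, SEL1L, HERPUD1, ERN1, ATF6 and ERO1B are highest there, and EIF2AK3 is high in both arms with EZH2i.

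Both lectin chaperones, which hold glycoproteins until they are folded, were lower in the combination. Soluble CALR (calreticulin) was at 1461, 1376 and 1449 CPM in DMSO, 1553, 1610 and 1588 CPM in AKTi, 1446, 1407 and 1429 CPM in EZH2i, and 1073, 1060 and 1061 CPM in the combination. AKTi was above all DMSO libraries, EZH2i was within their range, and the combination was below every other library. Its log2 fold change was -0.42 in the combination (SE 0.049, adjusted p = 9.3e-10) and 0.15 with AKTi (adjusted p = 0.013). The AKTi call was lost without DMSO replicate B (0.096, adjusted p = 0.16), AKTi replicate B (0.11, adjusted p = 0.13) or AKTi replicate C (0.12, adjusted p = 0.095).

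Membrane-bound CANX (calnexin) was at 942, 915 and 992 CPM in DMSO, 895, 901 and 897 CPM in AKTi, 703, 739 and 736 CPM in EZH2i, and 713, 661 and 662 CPM in the combination. The EZH2i and combination arms overlapped and both lay below the other arms. CANX fell by 0.48 on the log2 scale in the combination (adjusted p = 1.2e-10) and by 0.39 with EZH2i alone (adjusted p = 2.7e-08). The combination and EZH2i did not differ by the test (-0.10, adjusted p = 0.12).

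Of the 6 disulfide bond enzymes, 5 were lower in the combination and ERO1B was higher. ERO1A and ERO1B are the paired oxidases that recharge protein disulfide isomerases. ERO1A was at 77.1, 68.1 and 82.2 CPM in DMSO, 56.5, 58.9 and 60.5 CPM in AKTi, 42.1, 45.4 and 44.5 CPM in EZH2i, and 43.6, 38.2 and 40.5 CPM in the combination. AKTi lay below DMSO, and both arms with EZH2i lay below AKTi and overlapped each other. The combination value was -0.90 (SE 0.073, adjusted p = 1.4e-13) and the EZH2i value -0.79 (adjusted p = 7.1e-12) on the log2 scale, with no call between these arms (-0.11, adjusted p = 0.24).

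ERO1B was at 5.39, 3.91 and 5.08 CPM in DMSO, 7.81, 6.30 and 7.16 CPM in AKTi, 9.98, 7.60 and 10.2 CPM in EZH2i, and 13.1, 12.3 and 13.6 CPM in the combination. The arms rose in that order, AKTi and EZH2i overlapped, and the combination was above all. The log2 fold changes were 0.55 with AKTi (adjusted p = 0.0068), 0.94 with EZH2i (adjusted p = 3e-06) and 1.43 with the combination (SE 0.16, adjusted p = 2.3e-10). The AKTi value was 0.41 (adjusted p = 0.066) without DMSO replicate B. The ratio of ERO1A to ERO1B in TPM was 11.3 ± 1.11 for DMSO, 5.92 ± 0.753 for AKTi, 3.45 ± 0.693 for EZH2i and 2.23 ± 0.129 for the combination (SD, n = 3). GPR137B overlaps ERO1B on the opposite strand, held 164% as many counts and was at 1.89 in the combination, so its part in the ERO1B value was not tested.

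Among the isomerases, which form and rearrange disulfide bonds, PDIA6 and PDIA4 fell most in the combination, by 0.82 (adjusted p = 1.3e-16) and 0.80 (adjusted p = 8.8e-17) on the log2 scale. PDIA3, the partner of the lectin chaperones, was at -0.36 and P4HB at -0.20. AKTi alone called none of these 4, with values from -0.05 to 0.08. EZH2i alone lowered PDIA6 (-0.28, adjusted p = 9.1e-06) and PDIA4 (-0.20, adjusted p = 0.00085), and the PDIA4 value was -0.05 (adjusted p = 0.37) under library-size scaling.

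The 8 ERAD genes split evenly in the combination, with SEL1L, HERPUD1, EDEM3 and EDEM1 higher and DERL1, DERL2, DERL3 and SYVN1 lower. SEL1L, the adaptor that couples substrates to the ubiquitin ligase SYVN1, was at 135, 129 and 140 CPM in DMSO, 147, 145 and 142 CPM in AKTi, 151, 165 and 165 CPM in EZH2i, and 281, 268 and 280 CPM in the combination. The combination stood far above the other arms, and EZH2i was slightly above AKTi. The combination was 2.05 times DMSO (log2 1.04, SE 0.054, adjusted p = 4e-19), and EZH2i alone gave 0.25 (adjusted p = 0.00014). SYVN1, the ligase of the same complex, was at -0.24 in the combination (adjusted p = 0.001), and the ratio of SEL1L to SYVN1 in TPM was 1.17 ± 0.0301 for DMSO, 1.17 ± 0.0235 for AKTi, 1.45 ± 0.0604 for EZH2i and 2.82 ± 0.129 for the combination. FAU and MRPL49 overlap SYVN1 with 574% and 285% as many counts and were at -0.70 and -0.82 in the combination.

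HERPUD1, a membrane scaffold of the same complex, is given in full because of its values. It was at 155, 156 and 150 CPM in DMSO, 155, 155 and 144 CPM in AKTi, 146, 141 and 139 CPM in EZH2i, and 262, 252 and 255 CPM in the combination. EZH2i was below DMSO by a narrow margin, AKTi overlapped both, and the combination was above all. Neither single agent was called, although EZH2i was called lower in 6 of 19 alternatives, and the combination was 1.67 times DMSO (log2 0.74, SE 0.053, adjusted p = 3.2e-15). EDEM3 and EDEM1, which trim mannose from misfolded glycoproteins, were at 0.65 (adjusted p = 5.8e-10) and 0.27 (adjusted p = 0.00021). EDEM3 was as high with EZH2i alone (0.63), and the combination differed from EZH2i by 0.02 (adjusted p = 0.84).

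The derlins DERL1, DERL2 and DERL3 help move substrates out of the ER membrane. DERL1 was at 102, 103 and 107 CPM in DMSO, 83.3, 88.1 and 89.0 CPM in AKTi, 87.7, 95.3 and 97.4 CPM in EZH2i, and 83.3, 78.9 and 82.0 CPM in the combination. All treated libraries were below all DMSO libraries, and the combination value was -0.35 (adjusted p = 2.1e-06). The value with EZH2i alone, -0.15, was no call under 6 of 19 alternatives, with -0.13 (adjusted p = 0.078) without DMSO replicate C and -0.14 (adjusted p = 0.056) without EZH2i replicate A.

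DERL2 was at 47.6, 45.2 and 46.5 CPM in DMSO, 43.3, 43.2 and 47.4 CPM in AKTi, 43.7, 44.7 and 43.0 CPM in EZH2i, and 38.8, 34.2 and 41.9 CPM in the combination. Only the combination lay below every other library, at -0.28 (adjusted p = 0.0015). DERL3 was barely expressed, at 1.75, 2.88 and 1.63 CPM in DMSO, 1.23, 2.80 and 2.71 CPM in AKTi, 0.737, 1.34 and 0.827 CPM in EZH2i, and 0.659, 0.346 and 0.483 CPM in the combination. The combination libraries were below all others, at -2.02 (SE 0.42, adjusted p = 6.4e-05), and the EZH2i value of -1.08 (adjusted p = 0.015) became -0.85 (adjusted p = 0.089) without DMSO replicate B. DERL3 lies across from SMARCB1, which held 7780% as many counts on the opposite strand and was at -0.33 in the combination, so the DERL3 values are uncertain. MIS12 and TBC1D31, across from DERL2 and DERL1, were at -0.25 and -1.76.

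All 3 genes of the translocation channel were lower in every treated arm. SSR1, a subunit of the translocon-associated protein complex, was at 459, 473 and 468 CPM in DMSO, 338, 336 and 316 CPM in AKTi, 261, 275 and 267 CPM in EZH2i, and 178, 170 and 182 CPM in the combination. The 4 arms did not overlap. The log2 fold changes were -0.50 (adjusted p = 3.2e-10), -0.80 (adjusted p = 3e-16) and -1.40 (SE 0.052, adjusted p = 1.1e-23), and the combination was at 0.378 times DMSO. SEC61B, the small beta subunit of the channel, was at 110, 115 and 98.0 CPM in DMSO, 89.6, 93.9 and 87.7 CPM in AKTi, 88.4, 71.3 and 70.8 CPM in EZH2i, and 50.1, 56.6 and 51.4 CPM in the combination. AKTi and EZH2i overlapped in 1 library, and the combination was the lowest (-1.03, SE 0.075, adjusted p = 6.7e-15). SEC61A1, the pore-forming subunit, was at -0.27, -0.29 and -0.88 in the 3 arms. RUVBL1, which overlaps it on the opposite strand with 26.7% as many counts, was at -1.95 in the combination.

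The 3 stress sensors were higher in the combination and the 2 other transcription factors were lower. ERN1 encodes IRE1, the kinase and RNase that splices XBP1. It was at 46.1, 55.3 and 54.3 CPM in DMSO, 54.5, 58.8 and 52.0 CPM in AKTi, 46.8, 45.6 and 46.4 CPM in EZH2i, and 127, 130 and 130 CPM in the combination. DMSO overlapped both single agents, EZH2i lay below AKTi (-0.25, adjusted p = 0.0031), and all combination libraries stood above the other arms. The combination was 2.48 times DMSO (log2 1.31, SE 0.067, adjusted p = 1.8e-19). AKTi gave 0.09 (adjusted p = 0.36) and EZH2i -0.17 (adjusted p = 0.038), of which the EZH2i call was lost in 8 of 19 alternatives, with -0.13 (adjusted p = 0.15) without DMSO replicate C.

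ATF6, the sensor that is cleaved into a transcription factor, was at 62.2, 63.4 and 68.9 CPM in DMSO, 66.8, 70.1 and 69.4 CPM in AKTi, 72.9, 79.4 and 76.9 CPM in EZH2i, and 127, 114 and 121 CPM in the combination. EZH2i was above both lower arms and the combination above all. The combination was 1.86 times DMSO (log2 0.90, SE 0.063, adjusted p = 1.8e-15). EZH2i gave 0.23 (adjusted p = 0.0016), and 0.17 (adjusted p = 0.051) without DMSO replicate B.

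EIF2AK3 encodes PERK, the kinase that slows translation. It was at 33.1, 31.6 and 35.2 CPM in DMSO, 34.1, 31.9 and 35.9 CPM in AKTi, 71.5, 77.4 and 78.7 CPM in EZH2i, and 70.4, 57.7 and 71.3 CPM in the combination. The libraries fell into a low pair of arms without EZH2i and a high pair with it. EZH2i raised EIF2AK3 by 1.18 on the log2 scale (SE 0.079, adjusted p = 9.1e-16) and the combination by 0.99 (SE 0.079, adjusted p = 6.8e-14). The combination was 0.19 below EZH2i (adjusted p = 0.032), a call lost in 8 of 19 alternatives, with -0.10 (adjusted p = 0.29) without combination replicate B, -0.14 (adjusted p = 0.19) without EZH2i replicate C and -0.18 (adjusted p = 0.074) without EZH2i replicate B. The TPM of EIF2AK3 over that of ERN1 was 1.29 ± 0.146 for DMSO, 1.24 ± 0.149 for AKTi, 3.28 ± 0.193 for EZH2i and 1.03 ± 0.124 for the combination. AC062029.1, an antisense gene across from EIF2AK3, held 18.9% as many counts and was at 1.34 with EZH2i and 1.77 in the combination.

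XBP1, whose spliced form drives chaperone and ERAD genes, was at 329, 297 and 324 CPM in DMSO, 220, 221 and 235 CPM in AKTi, 243, 228 and 250 CPM in EZH2i, and 280, 254 and 248 CPM in the combination. All treated libraries were below all DMSO libraries, and the combination overlapped EZH2i but lay above AKTi. The log2 fold changes were -0.49 with AKTi (adjusted p = 6.1e-09), -0.40 with EZH2i (adjusted p = 1.3e-07) and -0.28 with the combination (SE 0.056, adjusted p = 3.8e-05). Gene counts do not separate spliced from unspliced XBP1. CREB3L2, an ATF6-like membrane-bound factor, was at -0.30, -0.24 and -0.48 in the 3 arms, all called, the EZH2i value being -0.09 (adjusted p = 0.18) under library-size scaling. WFS1, an ER membrane protein that restrains ATF6, was at 46.1, 46.0 and 42.1 CPM in DMSO, 42.1, 42.4 and 52.1 CPM in AKTi, 59.8, 51.8 and 55.0 CPM in EZH2i, and 39.4, 35 and 32.7 CPM in the combination. EZH2i was above DMSO (0.31, adjusted p = 0.0012) and overlapped AKTi in 1 library, and the combination was below all (-0.32, adjusted p = 0.0011).

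With the single agents fewer of the 34 genes were called. AKTi raised 4 and lowered 11, beside 20.6% and 21.9% of all genes tested (42.5% in all). EZH2i raised 7 and lowered 17, beside 32.6% and 31.5% (64.1% in all). The members' medians were -0.03 and -0.13 on the log2 scale, and those of all genes 0.01 and 0.03. Library-size scaling changed the EZH2i counts to 11 higher and 11 lower and the AKTi counts to 8 higher and 10 lower. Of all 16646 genes, 10823 were then called with EZH2i, 6630 of them higher, and 7135 with AKTi, 4112 of them higher. Without DMSO replicate B only 1 gene, EDEM3, was called higher with AKTi (all genes 2827 of 17307). Both agents called 12 genes in the same direction, among them SSR1, SEC61A1, SEC61B, DNAJB11, SDF2L1, XBP1 and ERO1A (lower) and ERO1B and EDEM3 (higher), and no gene was called in opposite directions. How often all genes were called alike by both agents was not counted, and both comparisons share the DMSO libraries.

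The combination was below all other arms, by 3 calls each, for 19 of the 34 genes, and above all other arms for 7, which were ATF6, DNAJB9, EDEM1, ERN1, ERO1B, HERPUD1 and SEL1L. How often all genes showed 3 such calls was not counted, so these counts are not set against a share. Of the 19, P4HB, SYVN1, DERL2 and WFS1 lost the call against DMSO under library-size scaling. Among the 7 higher genes, a call was lost for EDEM1 (0.15 against AKTi without AKTi replicate A, and against EZH2i 0.14 without EZH2i replicate A and 0.17 without combination replicate A) and for ERO1B (0.36 against EZH2i without EZH2i replicate B). Among the 19, CREB3L2 lost the call against AKTi without combination replicate B (-0.14), P4HB without combination replicate C (-0.12), and SYVN1 the call against EZH2i without EZH2i replicate B (-0.16), EZH2i replicate C (-0.15), combination replicate A (-0.16) or combination replicate C (-0.17). DERL2 lost the call against EZH2i in 11 of 19 alternatives, 7 of which left out a library, with -0.12 without combination replicate B, and the call against AKTi in 5 of 19, with -0.15 without combination replicate B and -0.19 without AKTi replicate C. Against AKTi the combination was called lower in 22 and higher in 10 (all genes 32.1% and 32.1%, 64.2% in all), and against EZH2i lower in 22 and higher in 7 (all genes 25.7% and 21.1%, 46.7% in all). These comparisons share libraries, so their counts are not independent. EZH2i was called lower than AKTi in 14 and higher in 9 (all genes 25.1% and 25.4%, 50.4% in all), and the higher calls numbered 4 without AKTi replicate A, AKTi replicate B or EZH2i replicate C and 5 without AKTi replicate C. CRELD2, DERL2, EDEM1, HERPUD1, P4HB, PDIA3 and SYVN1 were called in the combination and by neither agent alone, a pattern not counted over all genes. Of these 7, DERL2 was the only one not called with either agent under any alternative: CRELD2 was called higher with AKTi in 9 of 19 and lower with EZH2i in 5 of 19, and HERPUD1 lower with EZH2i in 6 of 19. The interaction was not called for DERL2 (-0.14, adjusted p = 0.39) or EDEM1 (0.14, adjusted p = 0.26).

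The test of the difference itself is the interaction, the log2 fold change of the combination less the sum of those of both single agents, which is 0 where the single effects add up. It was called negative in 16 of the 34 genes and positive in 6, beside 17.5% and 10.7% of all genes (28.2% in all). The members' median was -0.22 and that of all genes -0.05. Positive values were those of ERN1 (1.39, SE 0.097, adjusted p = 6.6e-14), DNAJB9 (1.06, adjusted p = 4.8e-09), HERPUD1 (0.87, adjusted p = 2e-11), SEL1L (0.68, adjusted p = 9.5e-09), XBP1 (0.61, adjusted p = 2.1e-07) and ATF6 (0.58, adjusted p = 3.7e-06). The most negative called values were those of SDF2L1 (-0.89, adjusted p = 3.1e-06) and MANF (-0.82, adjusted p = 6.4e-10). XBP1 was lower in the combination than in DMSO although its interaction was positive. It was further below DMSO with AKTi alone than in the combination, while the combination and EZH2i did not differ by the test (0.12, adjusted p = 0.085).

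Genes whose effects added up within the error were spread over roles. SSR1 had an interaction of -0.10 (adjusted p = 0.33), DNAJB11 of 0.02 (adjusted p = 0.92), CANX of -0.02 (adjusted p = 0.91), ERO1B of -0.07 (adjusted p = 0.86) and EIF2AK3 of -0.22 (adjusted p = 0.16). In 5 genes EZH2i acted one way alone and the other way on top of AKTi, both called: DNAJB9, ERN1, HSPA5, WFS1 and XBP1. For HSPA5 and ERN1 the call with EZH2i alone was lost in 11 and 8 of 19 alternatives. The DNAJB9 call with EZH2i alone was lost under library-size scaling, at -0.14. DNAJB9, for example, was at -0.28 with EZH2i against DMSO and at 0.78 (adjusted p = 1.8e-10) with the combination against AKTi, while WFS1 was at 0.31 and -0.35 (adjusted p = 0.00058). In XBP1 the second of these values, 0.21 (adjusted p = 0.0015), became 0.14 (adjusted p = 0.068) without AKTi replicate A. In 3 genes, CALR, DNAJB9 and HSP90B1, AKTi acted one way alone and the other way on top of EZH2i. How often all genes showed a reversal of either kind was not counted. The AKTi call of HSP90B1 was lost without DMSO replicate B (0.14, adjusted p = 0.086). The AKTi call of CALR was lost in 4 of 19 alternatives, with 0.096 without DMSO replicate B, 0.11 without AKTi replicate B and 0.12 without AKTi replicate C.

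**Figure D5:**
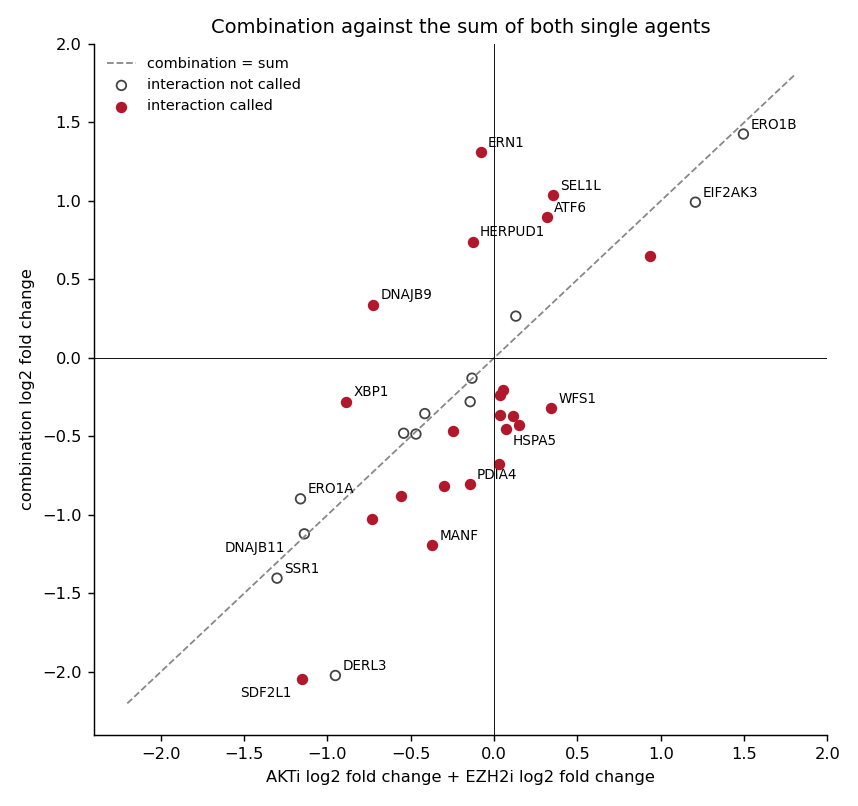
The horizontal axis is the sum of the AKTi and EZH2i log2 fold changes and the vertical axis the log2 fold change of the combination, 1 point per gene. The dashed line marks equality, and filled points passed the interaction test. ERN1, DNAJB9, HERPUD1, SEL1L and ATF6 stand above the line, SDF2L1, MANF and PDIA4 below it, and SSR1, DNAJB11 and ERO1B close to it.

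Of the 8 genes with ERSE, 7 were lower in the combination (HSPA5, HSP90B1, CRELD2, CALR, CANX, PDIA6 and XBP1), beside 24 of all 34 members and 35.2% of all genes. The exception was ERO1B, whose higher value is uncertain because of its overlap with GPR137B. CRELD2 is overlapped by ALG12 on the opposite strand, with 36% as many counts, so its lower value is uncertain too. ALG12 was at -0.38 in the combination. Of the 3 with ERSE-II, HERPUD1 was higher (0.74), and SDF2L1 (-2.05) and HYOU1 (-0.47) were lower. No element was found in the windows of ERN1, ATF6, EIF2AK3, SEL1L, EDEM1, EDEM3 or DNAJB9, the other higher genes. Neither ERSE nor ERSE-II was found in the lower genes DNAJB11, MANF, P4HB, PDIA4, ERO1A, SYVN1, DERL2, SEC61A1, SEC61B, SSR1, CREB3L2 and WFS1 either. Lower genes without an exact match thus included SSR1 (-1.40), MANF (-1.19) and DNAJB11 (-1.12). PDIA3, DERL1 and DERL3, also lower, had no window.

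The rest of the pathway was described with 7 further lists, none of which shares a gene with the 34. Their counts in the combination stand beside 38% of all genes called higher and 35.2% called lower. In the PERK and ATF4 arm, 10 of 12 genes were higher and 2 lower in the combination, with a median of 1.04. ATF4, the factor translated when PERK is active, was at 723, 717 and 703 CPM in DMSO, 620, 633 and 628 in AKTi, 422, 411 and 430 in EZH2i, and 1089, 1079 and 1028 in the combination. Each single agent lay below DMSO and the combination above it. ATF3 (2.22), NUPR1 (2.16), DDIT3 (CHOP, a proapoptotic factor; 1.67) and CHAC1 (1.53) were among the higher genes, and EIF2S1 (-0.99) and PPP1R15B (-0.41) were lower. The authors reported no ATF3 induction with EZH2 and AKT inhibitors, from a protein immunoblot at an earlier time than these RNA data. AKTi alone lowered 9 of the 12 (all genes 21.9%) and EZH2i alone 8 (all genes 31.5%), and the interaction was positive in 10 of 12 (all genes 10.7%) with a median of 1.75. ATF4 can also be raised by kinases other than PERK, which these counts do not separate.

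The other translocation and N-glycosylation genes were lower in 20 of 22 and higher in 1, with a median of -0.62. SRPRB (signal recognition particle receptor, -1.69) and SSR3 (-1.54) were the lowest, SEC11C (a signal peptidase subunit, 0.91) was called higher, and DDOST (-0.06) was not called. COPII coat and cargo genes, which carry folded proteins out of the ER, were lower in 13 and higher in 4 of 18 tested, with PREB (-1.36) and KDELR2 (-1.22) lowest and KDELR3 (0.50) and SEC31A (0.30) highest. Other ER folding and redox genes were lower in 13 and higher in 4 of 23, from PRDX4 (-1.81) and DNAJC10 (-0.89) to ERP44 (0.54) and QSOX1 (1.35).

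Other ERAD genes were lower in 10 and higher in 4 of 21, 66.7% called in all against 73.2% of all genes, from AUP1 (-1.24) and UFD1 (-1.14) to HERPUD2 (0.89) and OS9 (1.05), the latter a lectin that delivers glycoproteins to SEL1L. Other unfolded protein response regulators were lower in 7 and higher in 3 of 11 tested, from STUB1 (-1.22) and BAK1 (-1.11) to CREB3 (0.40) and ATF6B (0.72). Cytosolic heat shock chaperones, a response outside the ER, were lower in 14 of 16 and higher in 0, with a median of -1.23. HSPH1 (-2.40) and CHORDC1 (-1.93) were the lowest, and HSF1 (-0.12) and DNAJB6 (0.09) were not called.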

How the data were processed

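PolyA RNA-seq counts of 12 C4.2B libraries, 3 per arm, were used. The authors aligned reads to hg38 with STAR and counted them per gene with HTSeq, and the deposited values are whole counts. A deposited column of gene lengths was used for TPM, and the authors' DESeq2-normalized table was not used. Arms came from the labels. Raw counts were fitted with edgeR 4.0.16 in R 4.3.3. Genes passed filterByExpr (minimum count 10, minimum total 15), libraries were scaled by TMM, and 1 mean per arm was fitted over all 12 libraries (quasi-likelihood, 8 residual degrees of freedom). The 7 contrasts were adjusted by Benjamini-Hochberg over 16646 genes at 0.05. CPM are TMM-scaled. Alternatives were DESeq2 1.42.0, library-size and upper-quartile scaling, looser (at least 1 count in total) and stricter (10 counts in each library) filters, fits of the compared libraries alone, a replicate block, and fits without each library in turn.

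Full values are given for the 2 genes of each role with the largest change in the combination, the sensors, XBP1, HSPA5, both ERO1 genes and the derlins, and for DNAJB9 and HERPUD1, which were added after their values were seen. Further lists are given by their counts and their 2 highest and 2 lowest genes. ATF4, DDIT3 and CHAC1 were also named after their values were seen. Members and lists were chosen with earlier results of these data known. On simulated data for the combination against DMSO, 192 of 200 changed genes were recovered with 10 false calls among 15159 genes. The 200 were changed by the same amount, as many up as down, and every other gene was equal in all arms. Every gene had the same setting for extra spread. In the data 73.2% of genes were called, so the simulation checks the code and does not measure error rates or the scaling here. Libraries of an arm differed by more than sampling noise (chi-square 2.56 to 7.4 per gene). Protein sequences were not used here.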

Additional observations from a re-analysis of the deposited data

Results flagged for a closer look

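The interaction test called 22 of the 34 genes, beside 28.2% of all genes tested. In each of the 22 the effect of EZH2i differed with and without AKTi. The 6 positive values on the log2 scale were ERN1 1.39, DNAJB9 1.06, HERPUD1 0.87, SEL1L 0.68, XBP1 0.61 and ATF6 0.58. Negative values in the chaperones and their cofactors were SDF2L1 -0.89, MANF -0.82, CRELD2 -0.70, HSPA5 -0.52, HSP90B1 -0.48 and HYOU1 -0.22, and CALR was at -0.57. The disulfide bond enzymes were at -0.66 for PDIA4, -0.52 for PDIA6, -0.39 for PDIA3 and -0.26 for P4HB. SEC61A1 was at -0.32, SEC61B at -0.29, EDEM3 at -0.29, SYVN1 at -0.27 and WFS1 at -0.66. EDEM3, SEC61B, SYVN1 and HYOU1 lost the call without 1 or more single libraries, with values of -0.23 (EDEM3 without combination replicate B), -0.22 (SEC61B without EZH2i replicate A), -0.23 (SYVN1 without DMSO replicate B) and -0.16 (HYOU1 without DMSO replicate B).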

How the results depend on the processing

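The higher calls in the combination against DMSO numbered 9 under every alternative. Library-size scaling and upper-quartile scaling moved 3 counts by over 1.5 times, to the same values: 8 members higher with AKTi against DMSO, and 11 higher and 11 lower with EZH2i against DMSO. They also took the lower calls in the combination against DMSO from 24 to 19. The calls over all genes moved too. Under upper-quartile scaling 4110, 6412 and 7502 of 16646 genes were higher with AKTi, EZH2i and the combination, against 3429, 5421 and 6320 under TMM. The TMM factors were 0.929 to 0.937 in DMSO and 1.05 to 1.09 in the combination, and the cause of this gap was not tested. With EZH2i against DMSO, HYOU1 turned from -0.13 to 0.014 (adjusted p = 0.81) by library size, and CALR from -0.0015 to 0.14 (adjusted p = 0.0075) by library size and 0.12 (adjusted p = 0.025) by upper quartile. Leaving out 1 library gave 1 to 5 members higher with AKTi against DMSO (1 without DMSO replicate B) and 4 to 9 higher with EZH2i against AKTi. The replicate block changed 1 of 238 values for members: the counts were otherwise equal, and 8 in place of 9 members were higher with EZH2i against AKTi, where ATF6 was at 0.15 (adjusted p = 0.053). Libraries with the same letter did not deviate together (r -0.0749 to 0.112 over 18 pairs, 1 over 0.1), so the letters were not taken as pairs. The members with the fewest counts, DERL3 and ERO1B, had the largest SEs.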
